A study of Homo sapiens with 10 samples.

Results

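Colony BR10 is 1 of 3 colonies of the human papillary thyroid carcinoma cell line TPC-1 that grew out in 5 µM BLU667, an inhibitor of the RET kinase also known as pralsetinib. Its RNA was compared with that of parental TPC-1 cells that had received the solvent DMSO for 24 h. Genes were included if at least 2 of these 4 libraries, 2 of BR10 and 2 of DMSO, reached 1 FPKM (a count of fragments scaled to gene length and library size), a rule that uses levels and not differences. It kept 12346 of the 58735 genes in the deposited table, of which 10568 were protein-coding. Of these, 529 passed only through their BR10 libraries and 375 only through their DMSO libraries, so a difference in those genes is partly set by the rule. Every group carried the CCDC6-RET fusion, per the labels. The other groups used here were parental cells given 5 µM BLU667 for 24 h and the colonies BR8 and BR16, each with 2 libraries. The labels put the 3 colonies at more than 50 days in 5 µM BLU667, and the series' design text at more than 5 months. BR10 is a single colony, and no solvent culture of the same age was analysed here, so time in culture, growth from few cells and the drug cannot be told apart. The design text calls the 2 libraries of a group biological replicates but the labels name no separate cultures. The p-values thus measure the spread between libraries of a group, pooled over all 5 groups, which may be technical.

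RET is a receptor tyrosine kinase that thyroid follicular cells hardly use. In papillary thyroid carcinoma a chromosomal inversion can join its kinase domain to the dimerizing part of CCDC6, and the fusion protein then signals without a ligand through SHC, GRB2 and SOS to RAS, RAF, MEK and ERK. ERK raises a set of early and delayed genes, among them the transcription factors FOSL1, ETV1, ETV4 and ETV5 and the feedback inhibitors of the DUSP, SPRY and SPRED families, whose RNA is widely read as a measure of the pathway's output.

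The 10 libraries held between 15243703 and 21904245 reads in genes, the lowest and the highest both in BR10. Replicates correlated across genes at r = 0.978 in DMSO and 0.987 in BR10. Read counts of the 2 libraries of a group differed most in DMSO, with a chi-square per degree of freedom of 21.6. It was 12.9 in BLU667, 7.98 in BR8, 5.2 in BR10 and 2.47 in BR16. The difference between the 2 DMSO libraries followed the GC content of the genes (Spearman's rho 0.67 across genes, which are not independent replicates), as did that between the 2 BR10 libraries (rho -0.5), while the difference of BR10 from DMSO had a rho of -0.26. The calls with this trend removed are given with the counts over all genes. Of the genes that define thyroid follicular cells, PAX8 was at 53.4 and 35.3 FPKM in DMSO and 51.9 and 54.6 in BR10 and HHEX at 3.89 and 4.38 FPKM in DMSO and 4.9 and 4.42 in BR10. NKX2-1, TSHR and SLC5A5 were at 0 in all 4 libraries, and the thyroid hormone precursor TG reached at most 0.161 FPKM in the 4 libraries. Of 4 tested genes of the thyroid identity list, 1 was higher, 1 lower and 2 not called. PAX8, not called in the main fit, was called higher with the GC trend removed (0.39, adjusted p = 0.0202, limma). GLIS3, a thyroid transcription factor, was higher in BR10, at 6.39 and 6.65 FPKM in DMSO and 14.9 and 14.3 in BR10 (log2 difference 1.06 ± 0.07 SE, adjusted p = 1.24e-05). FOXE1, another thyroid transcription factor, was lower, at 3.57 and 3.6 FPKM in DMSO and 2.04 and 2.65 in BR10 (log2 difference -0.46 ± 0.11 SE, adjusted p = 0.00947), a call lost with the GC trend removed (-0.17, adjusted p = 0.227) and without BR10 replicate 1 (-0.33, adjusted p = 0.0759, limma). No marker of immune, endothelial or erythroid cells reached the level for testing, and the summed levels of these 3 lists stayed between 0 and 1.457 FPKM in the 4 libraries. The fibroblast list, in which PDPN and PDGFRB passed the filter, summed to 27.95 and 29.54 FPKM in DMSO and to 1.965 and 2.384 in BR10. Most of the DMSO sums came from PDPN, which is given below among the largest decreases. All groups are cultures of the TPC-1 line. In bulk RNA, fewer cells that express a gene and less RNA per cell cannot be told apart. PAX8 overlaps another expressed gene, and the libraries do not mark strand, so reads of the pair cannot be separated.

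Differences between BR10 and DMSO are given as the fitted difference of log2(FPKM + 1), which understates the change of low genes, with its standard error (SE) and a Benjamini-Hochberg adjusted p from limma over the 12346 genes. Below an adjusted p of 0.05 a gene is called. BR10 differed from DMSO in 5621 genes (45.5%), of which 2589 were higher in BR10 (21%) and 3032 lower (24.6%). At least 2-fold differences on that scale were called in 553 genes that were higher (4.48%) and 654 that were lower (5.3%). The 2 BR10 libraries lay both above or both below the DMSO pair in 8589 genes (69.6%), 4016 above and 4573 below. The median difference over all genes was -0.027, and the median SE was 0.119. The counts were 1786 higher and 1835 lower without BR10 replicate 1, so the count of lower genes rests in part on that library. Removal of the GC trend moved the split of the calls to 2546 higher and 3773 lower, and quantile normalization to 2931 higher and 2756 lower. With only the 2 groups in the fit, 1795 genes were higher and 2090 lower.

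The 14 largest increases in BR10 had log2 differences from 2.94 to 4.68, among called protein-coding genes whose groups did not overlap. A mean of at least 5 FPKM in the higher group was also required. NOV (CCN3), a matricellular protein of the CCN family, was at 0.0605 and 0.166 FPKM in DMSO and 27.1 and 27.8 in BR10, the largest increase of these (log2 difference 4.68 ± 0.091 SE, adjusted p = 4.05e-08). PDZK1IP1, a small membrane protein, was at 1.2 and 1.5 FPKM in DMSO and 42.4 and 44.9 in BR10 (log2 difference 4.25 ± 0.09 SE, adjusted p = 5.69e-08). IL32, a pro-inflammatory cytokine, was at 0.941 and 1 FPKM in DMSO and 31.8 and 36.4 in BR10 (log2 difference 4.15 ± 0.17 SE, adjusted p = 1.19e-06). In each of these genes the BR10 libraries lay close to each other and far above both DMSO libraries. CLDN16, a tight-junction claudin known for magnesium transport in the kidney, was at 2.54 and 3.39 FPKM in DMSO and 64.8 and 64.7 in BR10 (log2 difference 4.06 ± 0.16 SE, adjusted p = 1.03e-06). CADM1, an immunoglobulin-like adhesion molecule, was at 0.0196 and 0.0689 FPKM in DMSO and 12.7 and 11.7 in BR10, and the vasoconstrictor peptide gene EDN2 at 0.296 and 0.154 FPKM in DMSO and 14.3 and 14.2 in BR10. Both were close to the detection limit in the parental cells. IGFBP7, a secreted binding protein for insulin-like growth factors, was at 24.1 and 21.9 FPKM in DMSO and 223 and 219 in BR10 (log2 difference 3.21 ± 0.12 SE, adjusted p = 1.03e-06), the highest FPKM in BR10 among the 14 largest increases. The lipid phosphatase gene SGPP2, which acts on sphingosine 1-phosphate, was at 0.679 and 0.682 FPKM in DMSO and 14.9 and 14.2 in BR10 (log2 difference 3.21 ± 0.097 SE, adjusted p = 4.37e-07). Reads of IGFBP7 may include those of an overlapping expressed gene.

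**Figure D1:**
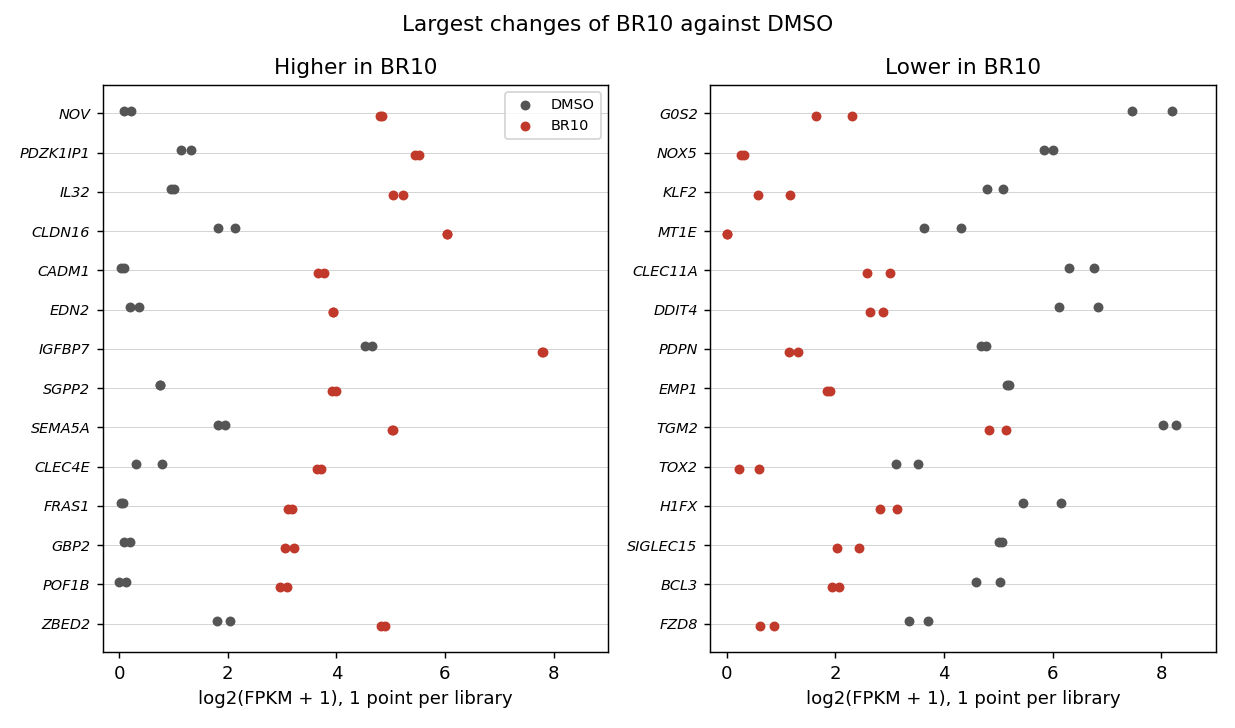
Levels of the 14 genes with the largest increase (left) and the largest decrease (right) in BR10, as log2(FPKM + 1) with 1 point per library (DMSO grey, BR10 red). In every gene shown both red points lie on the same side of both grey points, from NOV (log2 difference 4.68) to FZD8 (-2.78). This was a condition for choosing the genes.

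The remaining 6 of the 14 largest increases were SEMA5A, a semaphorin, at 2.54 and 2.88 FPKM in DMSO and 32.1 and 31.7 in BR10; CLEC4E, a C-type lectin receptor, at 0.245 and 0.731 FPKM in DMSO and 12.2 and 11.5 in BR10; FRAS1, a basement membrane protein, at 0.0227 and 0.0534 FPKM in DMSO and 7.67 and 8.09 in BR10; GBP2, an interferon-induced GTPase, at 0.0687 and 0.151 FPKM in DMSO and 8.32 and 7.33 in BR10; POF1B, an actin-binding protein, at 0 and 0.0942 FPKM in DMSO and 7.51 and 6.82 in BR10; and ZBED2, a zinc finger transcription factor, at 3.13 and 2.49 FPKM in DMSO and 27.2 and 28.9 in BR10. Their log2 differences ran from 2.94 in ZBED2 to 3.15 in SEMA5A. PPP1R14C, an inhibitor of protein phosphatase 1 (ENSG00000198729, chromosome 6, 150143076 to 150250357, plus strand), had no read in either DMSO library and 229 and 316 reads in BR10, or 6.58 and 6.47 FPKM. Set against a floor of 3 reads over the DMSO group, that is at least 161-fold higher. The mitochondrial alanine tRNA gene MT-TA had 0 reads in both DMSO libraries and 9 and 8 in BR10, at least 5.21-fold higher on the same floor, from counts too small for a stable call (log2 difference 2.9 ± 0.76 SE, adjusted p = 0.0147). Without BR10 replicate 1, DMSO replicate 1 or DMSO replicate 2, the MT-TA difference was 2.61 to 2.9 and the call was lost (adjusted p = 0.0547 to 0.084).

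The stretches of 250 bases before the RefSeq gene start are shown for 4 of the extreme genes (GRCh38.p14, plus strand, 5′ to 3′), because transcription factors of the NF-kB and AP-1 families are known to act at promoters of cytokine and ERK-induced genes. Matches to the NF-kB consensus and to the AP-1 site TGANTCA were sought on both strands, and the overlap of matches is given. Of the printed windows, IL32 was searched for NF-kB only, EMP1 for AP-1 only and SGPP2 for both. PPP1R14C was searched for CpG only. Unmarked letters can thus hold matches to a motif that was not searched in that window. Capitals mark NF-kB consensus matches in IL32 (chr16:3065153-3065402), 2 overlapping ones that start at positions -99 and -98 relative to the gene start. In SGPP2 (chr2:222423738-222423987) they mark NF-kB matches at -239 and -139 and an AP-1 match at -63. In EMP1 (chr12:13196476-13196725), a membrane protein gene among the largest decreases, they mark AP-1 matches at -175 and -48. In PPP1R14C (chr6:150142794-150143043) they mark its 28 CpG dinucleotides, and 15.5% of the promoters in the RefSeq table held at least as many in this window (median 11). The RefSeq start of SGPP2 lies 529 bases before the gene start of the annotation behind the FPKM values, so its window is not the one next to that start. In IL32 that annotation puts the gene start at -106 relative to the RefSeq start. The IL32 matches at -99 and -98 thus lie inside the gene as annotated there. An NF-kB match was found in 9.57% and an AP-1 match in 6.6% of all 27305 promoters of this length, and in 11.8% and 3.72% of those of the 8745 tested genes with an entry. Genes at least 2-fold higher in BR10 held an NF-kB match in 9.91% and an AP-1 match in 6.41%, and genes at least 2-fold lower in 10.1% and 4.1%. These shares are a description with no test, and a match describes letters and not binding.
IL32: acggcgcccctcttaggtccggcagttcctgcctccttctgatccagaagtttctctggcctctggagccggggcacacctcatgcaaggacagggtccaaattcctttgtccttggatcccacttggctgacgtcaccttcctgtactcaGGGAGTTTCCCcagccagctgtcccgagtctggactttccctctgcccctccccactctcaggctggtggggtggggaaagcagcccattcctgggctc
SGPP2: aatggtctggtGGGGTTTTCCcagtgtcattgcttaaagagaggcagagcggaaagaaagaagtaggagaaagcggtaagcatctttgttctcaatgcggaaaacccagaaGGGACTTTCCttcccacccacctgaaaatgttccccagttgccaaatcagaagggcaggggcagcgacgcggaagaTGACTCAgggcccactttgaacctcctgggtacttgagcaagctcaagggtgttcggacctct
EMP1: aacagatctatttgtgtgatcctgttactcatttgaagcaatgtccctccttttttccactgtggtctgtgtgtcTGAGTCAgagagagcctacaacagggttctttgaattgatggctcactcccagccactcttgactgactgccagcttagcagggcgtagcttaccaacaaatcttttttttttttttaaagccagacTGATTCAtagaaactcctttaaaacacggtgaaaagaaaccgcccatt
PPP1R14C: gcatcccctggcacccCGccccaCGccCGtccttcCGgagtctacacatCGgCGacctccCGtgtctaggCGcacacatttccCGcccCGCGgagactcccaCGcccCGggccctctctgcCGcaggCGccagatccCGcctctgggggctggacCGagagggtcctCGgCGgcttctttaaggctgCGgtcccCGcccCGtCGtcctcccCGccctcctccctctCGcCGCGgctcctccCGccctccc

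The largest decreases were in G0S2 and NOX5. G0S2, an inhibitor of the lipase ATGL, was at 294 and 176 FPKM in DMSO and 2.14 and 3.92 in BR10 (log2 difference -5.86 ± 0.32 SE, adjusted p = 4.39e-06). NOX5, a calcium-regulated NADPH oxidase, was at 63.5 and 56.4 FPKM in DMSO and 0.208 and 0.243 in BR10 (log2 difference -5.63 ± 0.1 SE, adjusted p = 4.05e-08). Neither gene's groups overlapped, which was a condition for the largest decreases as for the increases. NOX5 was below 1 FPKM in both BR10 libraries, while G0S2 stayed above that level. KLF2, a Krüppel-like transcription factor induced by MEK5-ERK5 signalling, was at 33.2 and 26.9 FPKM in DMSO and 0.49 and 1.25 in BR10 (log2 difference -4.08 ± 0.22 SE, adjusted p = 4.33e-06). DDIT4, a stress-induced inhibitor of mTORC1, was at 114 and 68.2 FPKM in DMSO and 5.23 and 6.32 in BR10 (log2 difference -3.72 ± 0.33 SE, adjusted p = 5.85e-05). CLEC11A, a secreted growth factor with a lectin domain, was at 108 and 78.1 FPKM in DMSO and 5.01 and 7.02 in BR10, and PDPN, the membrane mucin podoplanin, at 24.6 and 26.4 FPKM in DMSO and 1.2 and 1.5 in BR10. EMP1, whose promoter is printed above, was at 35.9 and 34.8 FPKM in DMSO and 2.59 and 2.73 in BR10 (log2 difference -3.31 ± 0.094 SE, adjusted p = 4.1e-07). TGM2, the tissue transglutaminase that crosslinks matrix proteins, was at 310.2 and 261 FPKM in DMSO and 27.6 and 34.5 in BR10 and was still abundant in BR10. TOX2, H1FX, SIGLEC15, BCL3 and FZD8 were also among the 14 largest decreases, with log2 differences from -2.91 in TOX2 to -2.78 in FZD8. TGM2 shares positions with another expressed gene, which makes its level uncertain.

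The metallothionein gene MT1E (ENSG00000169715, chromosome 16, 56625475 to 56627112, plus strand), a metal-binding protein, was at 11.4 and 19.0 FPKM in DMSO (222 and 316 reads) and had no read in either BR10 library. Against the floor of 3 reads over the BR10 group it was at least 207-fold lower. BR8 and BR16 also had no MT1E read, while BLU667 for 24 h gave 48.7 and 59.5 FPKM. MT1E shares most of its sequence with other metallothionein genes, so reads could be split among them or dropped. MT2A, the most abundant of them, was at 484 and 542 FPKM in DMSO and 645 and 799 in BR10, and MT1X was at 0.578 and 1.39 FPKM in DMSO and 4.5 and 3.48 in BR10. The microRNA gene MIR4664 was at 9 and 4 reads in DMSO and 0 in BR10, at least 4.78-fold lower. With so few reads its call depends on the libraries used (log2 difference -2.58 ± 0.59 SE, adjusted p = 0.00775). The call of MIR4664 was lost without DMSO replicate 1 (-2.19, adjusted p = 0.0536).

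The 45 gene lists used below cover 763 entries and were chosen with earlier results of these data known. In the summary of list counts, most tested genes were called in 1 direction in, among others, mitosis (20 of 21 tested genes lower), glycolysis and hypoxia-inducible genes (17 of 22 lower), S phase (15 of 20 lower), mitochondrial transcripts (11 of 13 lower), sterol synthesis and uptake (12 of 19 higher) and MHC class I presentation (11 of 15 higher). Over all tested genes 24.6% were called lower and 21% higher. These shares are the background for each list count against DMSO from the main fit.

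**Figure D2:**
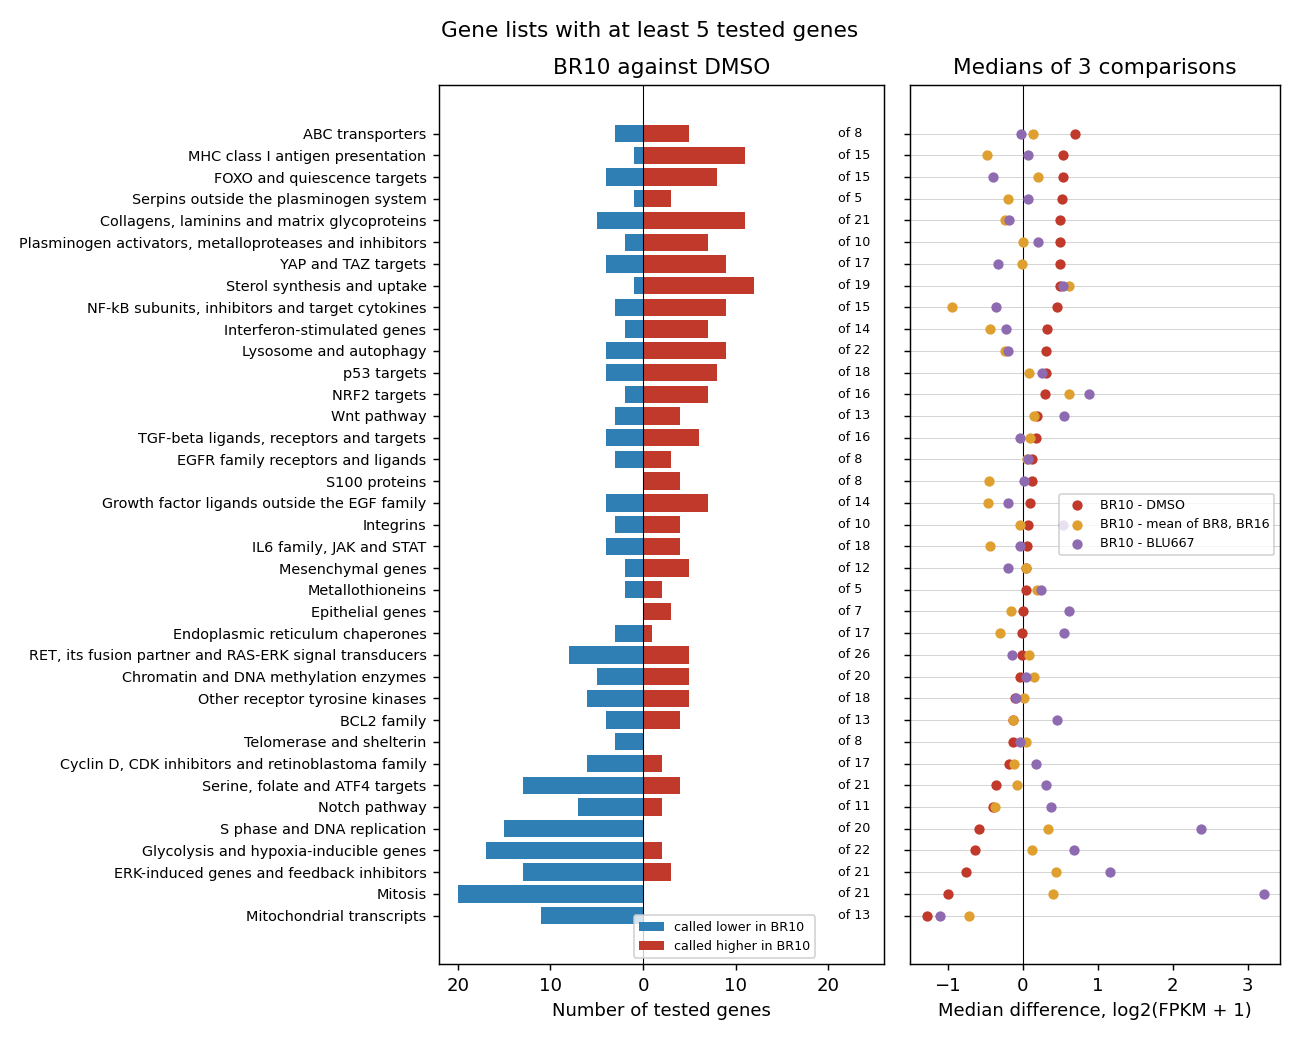
Left, number of tested genes of each list called lower (blue, drawn to the left) or higher (red, drawn to the right) in BR10 than in DMSO, with the number tested at the right edge. Right, median difference in log2(FPKM + 1) of each list for BR10 minus DMSO (red), minus the mean of BR8 and BR16 (yellow) and minus 24 h BLU667 (purple); the median of the mitosis list was -0.99 against DMSO and 3.21 against BLU667.

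RET itself stood at 6.9 and 6.92 FPKM in DMSO and 7.87 and 7.55 in BR10 (log2 difference 0.14 ± 0.076 SE, adjusted p = 0.169) and did not pass the test, with both BR10 libraries slightly above both DMSO libraries. Its fusion partner CCDC6 was at 0.727 and 0.293 FPKM in DMSO and 0.0842 and 0.198 in BR10 and was not tested. These are the values of the whole genes, and the table does not separate fused from unfused transcripts. Of 26 tested genes for RET and the RAS-ERK signal transducers, 5 were higher in BR10, 8 lower and 13 not called (median difference -0.01). The docking protein GAB1 was at 0.528 and 0.806 FPKM in DMSO and 1.99 and 2.16 in BR10 (log2 difference 0.89 ± 0.13 SE, adjusted p = 0.000974). SHC1, the adaptor that links receptors to GRB2, was at 112 and 95.2 FPKM in DMSO and 49.9 and 58.8 in BR10 (log2 difference -0.92 ± 0.15 SE, adjusted p = 0.00133). MAP2K2, which encodes MEK2, was at 25.7 and 20.1 FPKM in DMSO and 10.7 and 12 in BR10 (log2 difference -0.95 ± 0.16 SE, adjusted p = 0.00177), and the RAF kinase gene ARAF at 14.3 and 12.9 FPKM in DMSO and 7.6 and 9.09 in BR10 (log2 difference -0.65 ± 0.11 SE, adjusted p = 0.00153). NRAS, BRAF, MAP2K1 and MAPK3 were not called. Without BR10 replicate 2 the list gave 2 higher and 5 lower, and without BR10 replicate 1 it gave 3 and 5. An expressed gene overlaps SHC1.

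ERK-induced genes and feedback inhibitors were mostly lower in BR10: 13 of 21 tested genes were called lower, 3 higher and 5 not called, with a median difference of -0.76. FOSL1, an AP-1 subunit, was at 221 and 169.8 FPKM in DMSO and 37 and 44.6 in BR10 (log2 difference -2.23 ± 0.25 SE, adjusted p = 0.000226). The receptor kinase inhibitor SPRY1 was at 5.74 and 5.62 FPKM in DMSO and 0.546 and 0.779 in BR10 (log2 difference -2.01 ± 0.13 SE, adjusted p = 1.19e-05) and its relative SPRY4 at 9.22 and 8.74 FPKM in DMSO and 2.19 and 2.37 in BR10 (log2 difference -1.61 ± 0.11 SE, adjusted p = 1.59e-05). ETV1, an ETS factor, was at 6.56 and 7.94 FPKM in DMSO and 1.34 and 1.48 in BR10 (log2 difference -1.77 ± 0.13 SE, adjusted p = 1.91e-05). In all 4 genes the groups did not overlap and both BR10 libraries were far below both DMSO libraries. ETV5 was at 19.8 and 21.6 FPKM in DMSO and 9.89 and 9.28 in BR10 and the ERK phosphatase gene DUSP6 at 7.04 and 5.75 FPKM in DMSO and 3.08 and 3.61 in BR10, smaller decreases (-1.04 and -0.76 on the log2 scale). 3 genes of the list went the other way. DUSP5, a nuclear ERK phosphatase, was at 21.2 and 19.4 FPKM in DMSO and 57.2 and 59 in BR10 (log2 difference 1.47 ± 0.18 SE, adjusted p = 0.000353), EGR1, an immediate early transcription factor, at 2.73 and 2.44 FPKM in DMSO and 5.84 and 8.01 in BR10 (log2 difference 1.13 ± 0.25 SE, adjusted p = 0.00707), and the ephrin receptor gene EPHA4 was also higher. The cell cycle regulator CCND1, at 104 and 108 FPKM in DMSO and 109 and 118 in BR10, and MYC, at 78.9 and 73.9 FPKM in DMSO and 56.5 and 65.9 in BR10, were not called. With quantile normalization CCND1 was called higher (0.23, adjusted p = 0.0487, limma). With voom on recovered reads MYC was called lower (-0.32, adjusted p = 0.0386, limma). CCND1 overlaps another expressed gene, and the libraries do not mark strand, so reads of the pair cannot be separated. For EGR1, leaving out BR10 replicate 2 ended the call (0.93, adjusted p = 0.0502).

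BR10 stood between DMSO and the other drug-exposed groups in many of these genes. After 24 h of BLU667, ETV5 was at 0.176 and 0.218 FPKM and DUSP6 at 0.135 and 0.0621, below BR10 (log2 difference 3.14 ± 0.083 SE, adjusted p = 8.31e-08 for ETV5 and log2 difference 1.98 ± 0.12 SE, adjusted p = 3.51e-06 for DUSP6, BR10 minus BLU667). In BR8, ETV5 was at 2.79 and 2.65 FPKM and in BR16 at 2.47 and 2.44. CCND1 was at 3.99 and 3.8 after 24 h of drug and thus far below BR10 (log2 difference 4.55 ± 0.09 SE, adjusted p = 4.5e-08). Against BLU667 the list had 14 genes higher in BR10, 2 lower and 5 not called. In that comparison 31% of all tested genes were called higher and 24.8% lower. DUSP5 separated BR10 from every other group, at 18.9 and 17.2 FPKM in BR8, 18.5 and 19.1 in BR16 and 6.8 and 3.87 after BLU667 (log2 difference 1.6 ± 0.16 SE, adjusted p = 0.000237, BR10 minus the mean of BR8 and BR16).

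**Figure D3:**
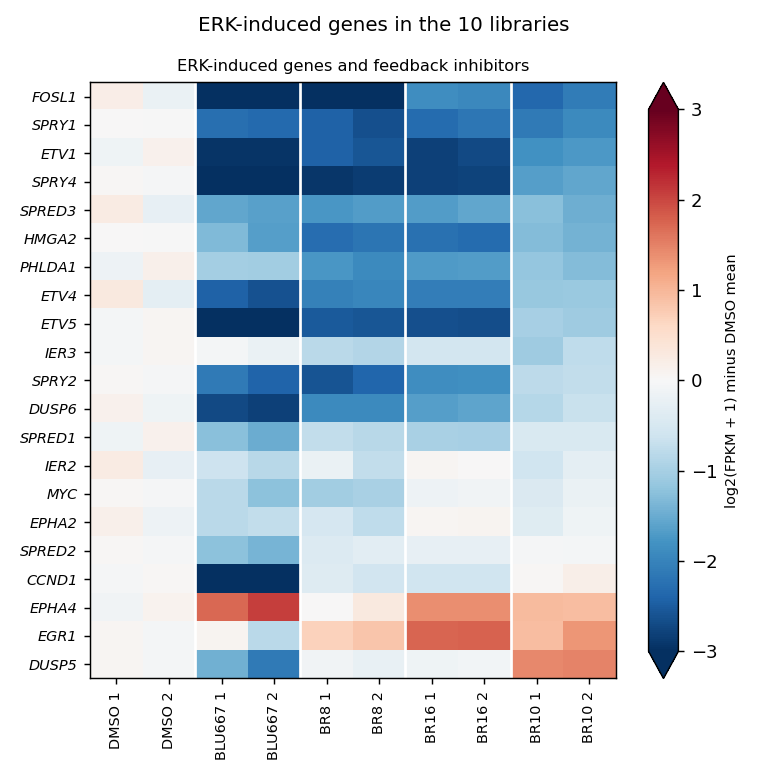
ERK-induced genes (1 row each) in the 10 libraries (columns), coloured by log2(FPKM + 1) minus the mean of the 2 DMSO libraries, with the colour scale ending at -3 and 3. The 2 BR10 columns are blue for FOSL1 to SPRED1 but paler than BLU667, BR8 and BR16 for ETV5, SPRY2 and DUSP6, and red for EPHA4, EGR1 and DUSP5.

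Receptors and ligands that can feed the same pathway changed in both directions. In the EGFR family, 3 of 8 tested genes were higher, 3 lower and 2 not called. EGFR was at 18.8 and 19.6 FPKM in DMSO and 49.3 and 51.8 in BR10 (log2 difference 1.35 ± 0.074 SE, adjusted p = 4.99e-06), and ERBB2 was not called. Among the ligands, EREG was at 4.47 and 6.4 FPKM in DMSO and 0.0216 and 0.0925 in BR10 (log2 difference -2.59 ± 0.2 SE, adjusted p = 2.71e-05) and TGFA at 34.5 and 37.9 FPKM in DMSO and 11 and 10.8 in BR10 (log2 difference -1.64 ± 0.1 SE, adjusted p = 9.91e-06), while BTC was at 0.153 and 0.135 FPKM in DMSO and 1.01 and 1.13 in BR10 (log2 difference 0.85 ± 0.11 SE, adjusted p = 0.000453). Thus the receptor gene and the betacellulin gene were higher and the 2 most changed of the other ligands were lower, with no overlap of the groups. BR8 and BR16 had more EGFR RNA than BR10, at 96.8 and 97.5 and 161 and 161 FPKM (log2 difference -1.29 ± 0.064 SE, adjusted p = 1.13e-05, BR10 minus their mean).

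Of 18 other receptor tyrosine kinases tested, 5 were higher, 6 lower and 7 not called. FGFR2, a receptor for fibroblast growth factors, was at 0.0498 and 0.117 FPKM in DMSO and 2.48 and 2.83 in BR10 (log2 difference 1.75 ± 0.13 SE, adjusted p = 2.09e-05), and its relative FGFR4 at 11.7 and 9.78 FPKM in DMSO and 2.35 and 2.98 in BR10 (log2 difference -1.68 ± 0.11 SE, adjusted p = 1.27e-05). The 2 receptors of the same family thus moved in opposite directions. PDGFRB was at 2.8 and 2.71 FPKM in DMSO and 0.173 and 0.346 in BR10 (log2 difference -1.58 ± 0.14 SE, adjusted p = 5.41e-05) and the neurotrophin receptor NTRK3 at 1.46 and 1.48 FPKM in DMSO and 0.259 and 0.208 in BR10 (log2 difference -1.0 ± 0.13 SE, adjusted p = 0.00049), both near the detection limit in BR10. The insulin receptor gene INSR was at 1.5 and 1.44 FPKM in DMSO and 3.48 and 3.5 in BR10 (log2 difference 0.86 ± 0.1 SE, adjusted p = 0.000271). Growth factor ligands outside the EGF family were higher in 7 of 14 tested genes and lower in 4. PDGFB was at 0.932 and 0.672 FPKM in DMSO and 10.9 and 11.2 in BR10 (log2 difference 2.75 ± 0.11 SE, adjusted p = 1.27e-06) and PDGFD at 0.253 and 0.637 FPKM in DMSO and 2.92 and 3.04 in BR10 (log2 difference 1.47 ± 0.12 SE, adjusted p = 3.79e-05), so ligands rose where the receptor gene PDGFRB fell. KITLG, the ligand of KIT, was at 6.67 and 9.55 FPKM in DMSO and 19.3 and 18.9 in BR10 (log2 difference 1.16 ± 0.15 SE, adjusted p = 0.000483), and VEGFA at 11.6 and 8.76 FPKM in DMSO and 4.3 and 4.56 in BR10 (log2 difference -1.03 ± 0.13 SE, adjusted p = 0.000318). The 6 lower receptor genes became 3 without either BR10 library, and without replicate 2 the 7 higher ligands became 4.

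Cell cycle genes were lower in BR10 than in DMSO and far higher than after 24 h of BLU667. Of 21 mitosis genes tested, 20 were lower, none higher and CDK1 was not called (median difference -0.99). CDK1 was called lower with the GC trend removed (-0.41, adjusted p = 0.00178, limma). The mitotic kinase gene PLK1 was at 40.6 and 37.5 FPKM in DMSO and 12.2 and 13.9 in BR10 (log2 difference -1.51 ± 0.087 SE, adjusted p = 6.53e-06) and CCNB1, the cyclin of mitotic entry, at 102 and 141 FPKM in DMSO and 46.8 and 49.2 in BR10 (log2 difference -1.3 ± 0.16 SE, adjusted p = 0.000368). MKI67, which encodes the proliferation marker Ki-67, was at 66.7 and 66 FPKM in DMSO and 25.3 and 32.2 in BR10 (log2 difference -1.19 ± 0.13 SE, adjusted p = 0.000163). Of 20 S phase genes, 15 were lower and 5 not called, with a median of -0.58. CDT1, which licenses replication origins, was at 22.2 and 16.6 FPKM in DMSO and 7.27 and 9.21 in BR10 (log2 difference -1.13 ± 0.15 SE, adjusted p = 0.00054) and RRM1, a subunit of ribonucleotide reductase, at 61.7 and 75 FPKM in DMSO and 38.5 and 38.8 in BR10 (log2 difference -0.8 ± 0.1 SE, adjusted p = 0.000374). PCNA, at 166 and 179 FPKM in DMSO and 148 and 152 in BR10, and MCM4, at 109 and 118 FPKM in DMSO and 100.1 and 107 in BR10, were not called, but both were called lower with the GC trend removed (-0.37 and -0.29). Against BLU667 all 21 mitosis genes and all 20 S phase genes were called higher in BR10, beside 31% of all tested genes. The medians against BLU667 were 3.21 and 2.37. MKI67 there was at 0.621 and 0.723 FPKM (log2 difference 4.15 ± 0.13 SE, adjusted p = 1.52e-07).

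The list of cyclin D, CDK inhibitors and retinoblastoma proteins had 2 genes higher, 6 lower and 9 uncalled. With the GC trend removed 1 was higher and 9 lower, and without BR10 replicate 1 the counts were 1 and 4. CDKN2A, the locus of p16 and ARF, was at 57.9 and 47.5 FPKM in DMSO and 14 and 17.6 in BR10 (log2 difference -1.68 ± 0.13 SE, adjusted p = 2.57e-05), and CDKN2C, which encodes p18, at 28.4 and 23.7 FPKM in DMSO and 9.58 and 11.4 in BR10 (log2 difference -1.23 ± 0.11 SE, adjusted p = 7.24e-05). CDKN1C, which encodes p57, was at 3.46 and 2.83 FPKM in DMSO and 6.74 and 7.77 in BR10 (log2 difference 1.0 ± 0.16 SE, adjusted p = 0.00123), the larger of the 2 increases. After 24 h of BLU667 it was higher still, at 60.7 and 49.2 FPKM (log2 difference -2.75 ± 0.16 SE, adjusted p = 2.54e-06). TERT, the catalytic subunit of telomerase, was at 1.59 and 1.5 FPKM in DMSO and 0.282 and 0.326 in BR10 (log2 difference -0.97 ± 0.14 SE, adjusted p = 0.000721). With the GC trend removed the TERT difference was -0.38 and no longer called (adjusted p = 0.0796, limma). Of the 8 telomerase and shelterin genes tested, 3 were lower and none higher, and without DMSO replicate 2 the counts were 4 and 1.

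FOXO and quiescence targets were called higher in 8 and lower in 4 of 15 genes (median 0.53). PIK3IP1, an inhibitor of PI3-kinase, was at 1.4 and 1.41 FPKM in DMSO and 8.78 and 7.98 in BR10 (log2 difference 1.96 ± 0.13 SE, adjusted p = 1.16e-05). The transcriptional co-regulator gene CITED2 was at 34.4 and 32.2 FPKM in DMSO and 127 and 128 in BR10 (log2 difference 1.91 ± 0.088 SE, adjusted p = 2.01e-06), and KLF4, another Krüppel-like factor, at 1.77 and 1.64 FPKM in DMSO and 6.31 and 7.06 in BR10 (log2 difference 1.5 ± 0.091 SE, adjusted p = 8.04e-06). These 3 genes rose while KLF2 of the same list was among the largest decreases. In the BCL2 family, 4 of 13 genes were higher and 4 lower. BCL2, which protects from apoptosis, was at 0.646 and 0.656 FPKM in DMSO and 3.56 and 3.4 in BR10 (log2 difference 1.44 ± 0.096 SE, adjusted p = 1.25e-05), and BIK, which promotes it, at 0.622 and 0.332 FPKM in DMSO and 5.19 and 6.71 in BR10 (log2 difference 2.23 ± 0.25 SE, adjusted p = 0.000209). The effectors BAX, at 29.7 and 21.5 FPKM in DMSO and 14.1 and 16.2 in BR10, and BAK1, at 14.1 and 13.4 FPKM in DMSO and 6.6 and 8.61 in BR10, were lower (-0.7 and -0.78). Of 18 p53 targets, 8 were higher and 4 lower: GADD45A, a growth arrest gene, was at 15.1 and 11.7 FPKM in DMSO and 24.3 and 25.7 in BR10 (log2 difference 0.86 ± 0.12 SE, adjusted p = 0.000545), and the death receptor gene TNFRSF10B at 55.5 and 52 FPKM in DMSO and 22.2 and 24.2 in BR10 (log2 difference -1.18 ± 0.083 SE, adjusted p = 1.78e-05). GDF15, a stress cytokine, was at 14.5 and 10.8 FPKM in DMSO and 4.86 and 5.37 in BR10 (log2 difference -1.14 ± 0.18 SE, adjusted p = 0.00136). Without BR10 replicate 2, or without DMSO replicate 1, 2 BCL2 family genes were higher and 3 lower, and without either BR10 library 5 p53 targets were higher. Reads of TNFRSF10B may include those of an overlapping expressed gene.

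The cytokine genes IL6, CXCL8 and TNF rose in BR10, and BCL3 and SOCS3 fell. IL6 was at 0.86 and 0.764 FPKM in DMSO and 11.1 and 11.8 in BR10 (log2 difference 2.78 ± 0.15 SE, adjusted p = 5.39e-06) and CXCL8, the neutrophil chemokine interleukin 8, at 3.79 and 5.89 FPKM in DMSO and 21.6 and 24.4 in BR10 (log2 difference 2.06 ± 0.32 SE, adjusted p = 0.00112). TNF was at 0.0322 and 0 FPKM in DMSO and 2.92 and 3.21 in BR10 (log2 difference 2.0 ± 0.14 SE, adjusted p = 1.92e-05) and thus close to 0 in the parental cells. RELB, a subunit of the non-canonical NF-kB pathway, was at 5.54 and 3.81 FPKM in DMSO and 11.5 and 12.7 in BR10 (log2 difference 1.22 ± 0.14 SE, adjusted p = 0.000264). BCL3, a nuclear partner of NF-kB subunits, was at 31.6 and 23.1 FPKM in DMSO and 3.21 and 2.85 in BR10 (log2 difference -2.8 ± 0.14 SE, adjusted p = 3.14e-06), and SOCS3, the feedback inhibitor of JAK-STAT3 signalling, at 16.5 and 12.4 FPKM in DMSO and 1.83 and 2.32 in BR10 (log2 difference -2.32 ± 0.16 SE, adjusted p = 1.42e-05). JAK1, a kinase of that pathway, was at 25.9 and 31 FPKM in DMSO and 63.8 and 60.4 in BR10 (log2 difference 1.1 ± 0.098 SE, adjusted p = 5.95e-05). The NF-kB list had 9 of 15 tested genes higher and 3 lower (median 0.46), and the IL6, JAK and STAT list 4 higher, 4 lower and 10 not called (median 0.06). Without BR10 replicate 2, or without DMSO replicate 2, the NF-kB list had 5 higher and 1 lower, and 1 was lower without BR10 replicate 1 or DMSO replicate 1 too. JAK1 shares positions with another expressed gene, which makes its level uncertain.

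IL6, TNF, CCL2 and IL32 were lower in BR10 than the mean of the other colonies, and CXCL8 was not called against that mean. IL6 was at 30.3 and 32.8 FPKM in BR8 and 22.3 and 19.2 in BR16 (log2 difference -1.1 ± 0.13 SE, adjusted p = 0.000649, BR10 minus their mean), and TNF at 9.03 and 6.98 and 10.7 and 9.38 (log2 difference -1.29 ± 0.12 SE, adjusted p = 0.00021). CCL2, a monocyte chemokine, was at 3.37 and 3.44 FPKM in DMSO and 5.67 and 5.99 in BR10, against 20.4 and 17.5 in BR8 and 50.9 and 51.3 in BR16 (log2 difference -2.24 ± 0.13 SE, adjusted p = 1.67e-05). IL32 was at 103 and 76.8 in BR8 and 80.1 and 81 in BR16 (log2 difference -1.29 ± 0.15 SE, adjusted p = 0.000454).

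Interferon-stimulated genes were higher in 7 of 14 tested genes and lower in 2 (median 0.32). The RNA sensor gene DDX58, which encodes RIG-I, was at 4.73 and 6.73 FPKM in DMSO and 12.1 and 11.9 in BR10 (log2 difference 0.97 ± 0.13 SE, adjusted p = 0.000509). IFIT3, an antiviral protein, was at 4.45 and 5.01 FPKM in DMSO and 9.28 and 10.4 in BR10 (log2 difference 0.92 ± 0.12 SE, adjusted p = 0.00054) and the signal transducer STAT2 at 5.11 and 4.1 FPKM in DMSO and 8.62 and 8.35 in BR10 (log2 difference 0.76 ± 0.098 SE, adjusted p = 0.00043). MHC class I presentation had 11 of 15 genes higher, 1 lower and 3 not called (median 0.54). The light chain gene B2M was at 81.1 and 90.1 FPKM in DMSO and 154 and 147 in BR10 (log2 difference 0.81 ± 0.091 SE, adjusted p = 0.000219). HLA-B was at 27.2 and 22.5 FPKM in DMSO and 53.3 and 54.3 in BR10 (log2 difference 1.09 ± 0.12 SE, adjusted p = 0.000186). In these genes the groups did not overlap. The HLA genes are near-identical in parts, so reads can be split among them or lost, and their levels are uncertain. TAP2, a subunit of the peptide transporter, was the gene of the list that was lower, at 6.75 and 7.07 FPKM in DMSO and 4.69 and 4.77 in BR10, and without either BR10 library it was not called. An expressed gene overlaps HLA-B.

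Matrix genes were higher in 11 of 21 tested genes and lower in 5 (median 0.5). COL12A1, a collagen that decorates fibrils, was at 4.67 and 5 FPKM in DMSO and 28.8 and 28.4 in BR10 (log2 difference 2.34 ± 0.073 SE, adjusted p = 4.44e-07). Fibronectin, FN1, was at 121 and 127 FPKM in DMSO and 375 and 380.3 in BR10 (log2 difference 1.6 ± 0.13 SE, adjusted p = 4.28e-05), and THBS1, which encodes thrombospondin 1, at 125 and 145 FPKM in DMSO and 379 and 383 in BR10 (log2 difference 1.5 ± 0.1 SE, adjusted p = 1.29e-05). TNC, the glycoprotein tenascin C, was at 14 and 11 FPKM in DMSO and 29.4 and 34.4 in BR10 (log2 difference 1.29 ± 0.19 SE, adjusted p = 0.000839). COL17A1, a hemidesmosome collagen, went the other way, at 3.48 and 3.15 FPKM in DMSO and 0.534 and 0.636 in BR10 (log2 difference -1.44 ± 0.11 SE, adjusted p = 2.83e-05), as did the laminin chain gene LAMB3, at 179 and 133 FPKM in DMSO and 66.6 and 77.8 in BR10 (log2 difference -1.09 ± 0.14 SE, adjusted p = 0.000432). ITGA6, the integrin chain of hemidesmosomes, was at 18.7 and 20.9 FPKM in DMSO and 7.9 and 8.46 in BR10 (log2 difference -1.18 ± 0.09 SE, adjusted p = 2.58e-05). So a collagen, an integrin chain and a laminin chain known from hemidesmosomes were all lower in BR10. Among 10 integrins tested 4 were higher, led by ITGB8, at 0.0925 and 0.0793 FPKM in DMSO and 3.67 and 3.07 in BR10 (log2 difference 2.01 ± 0.15 SE, adjusted p = 2.09e-05), and 3 lower. Only 3 matrix genes were lower when BR10 replicate 1 or DMSO replicate 1 was left out. LAMB3 and ITGA6 overlap another expressed gene, and the libraries do not mark strand, so reads of the pair cannot be separated.

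Of 10 plasminogen activators, metalloproteases and inhibitors, 7 were higher and 2 lower. MMP2, a gelatinase, was at 21.8 and 20.4 FPKM in DMSO and 37.6 and 41.8 in BR10 (log2 difference 0.88 ± 0.11 SE, adjusted p = 0.000294), with no overlap of the groups. Without BR10 replicate 1, 6 genes of this list were higher and 1 lower. The YAP and TAZ target list had 9 of 17 genes higher and 4 lower. CYR61 (CCN1) was at 135 and 109 FPKM in DMSO and 483 and 488 in BR10 (log2 difference 1.99 ± 0.11 SE, adjusted p = 6.18e-06) and CTGF (CCN2) at 48.8 and 52.5 FPKM in DMSO and 101 and 113 in BR10 (log2 difference 1.06 ± 0.087 SE, adjusted p = 3.8e-05), 2 matricellular genes of the family to which NOV belongs. NT5E, the ectonucleotidase CD73, was the largest decrease of the list, at 88.9 and 108 FPKM in DMSO and 20.6 and 20.5 in BR10 (log2 difference -2.2 ± 0.17 SE, adjusted p = 2.81e-05). In the TGF-beta list 6 of 16 genes were higher and 4 lower, with TGFB2 at 6.1 and 7.83 FPKM in DMSO and 38.1 and 35.9 in BR10 (log2 difference 2.26 ± 0.1 SE, adjusted p = 2.01e-06) and BMP4 at 1.93 and 1.44 FPKM in DMSO and 6.95 and 8.02 in BR10 (log2 difference 1.67 ± 0.12 SE, adjusted p = 2.14e-05). SMAD6, an inhibitory SMAD, was at 5.06 and 4.25 FPKM in DMSO and 1.12 and 1.24 in BR10 (log2 difference -1.37 ± 0.16 SE, adjusted p = 0.000231). When BR10 replicate 1 was left out, 2 YAP and TAZ targets were lower in place of 4.

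Transcription factors of epithelial-mesenchymal transition moved in opposite directions. SNAI2, which encodes Slug, was at 3.82 and 5.26 FPKM in DMSO and 23.7 and 24 in BR10 (log2 difference 2.18 ± 0.12 SE, adjusted p = 6.35e-06). SNAI1, which encodes Snail, was at 7.64 and 8.33 FPKM in DMSO and 1.47 and 2.12 in BR10 (log2 difference -1.69 ± 0.13 SE, adjusted p = 2.57e-05), and ZEB1 was at 9.19 and 10.9 FPKM in DMSO and 4.99 and 4.25 in BR10 (log2 difference -0.97 ± 0.1 SE, adjusted p = 0.00017). VIM was not called. The counts were 5 higher and 2 lower of 12 mesenchymal genes, and 3 higher and none lower of 7 epithelial genes tested. Leaving out DMSO replicate 2 gave 3 epithelial genes higher and 3 lower, and leaving out BR10 replicate 2 gave 1 higher. N-cadherin, CDH2, was at 14.4 and 17.1 FPKM in DMSO and 23.7 and 22.3 in BR10 (log2 difference 0.52 ± 0.094 SE, adjusted p = 0.00245) and was lower in BR8, at 9.41 and 10.2, and BR16, at 9.5 and 9.77 (log2 difference 1.16 ± 0.082 SE, adjusted p = 4.62e-05). Reads of ZEB1 may include those of an overlapping expressed gene.

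In the Notch list 7 of 11 tested genes were lower and 2 higher. HES1, a Notch target, was at 19.9 and 17.7 FPKM in DMSO and 4.83 and 5 in BR10 (log2 difference -1.74 ± 0.13 SE, adjusted p = 2.46e-05), and the ligand JAG1 at 1.76 and 1.85 FPKM in DMSO and 10.2 and 10.1 in BR10 (log2 difference 1.99 ± 0.077 SE, adjusted p = 1.03e-06). The receptor NOTCH3 was at 1.53 and 1.1 FPKM in DMSO and 0.105 and 0.136 in BR10 (log2 difference -1.04 ± 0.12 SE, adjusted p = 0.000261). A ligand gene thus rose while a receptor and a target gene fell. Of 13 Wnt pathway genes 4 were higher and 3 lower. WNT5B, a ligand of the non-canonical branch, was at 1.98 and 2.13 FPKM in DMSO and 17.4 and 18.3 in BR10 (log2 difference 2.62 ± 0.1 SE, adjusted p = 1.03e-06). The receptor genes FZD8, at 12 and 9.2 FPKM in DMSO and 0.537 and 0.831 in BR10 (log2 difference -2.78 ± 0.15 SE, adjusted p = 3.89e-06), and FZD1, at 8.56 and 7.42 FPKM in DMSO and 1.96 and 1.94 in BR10 (log2 difference -1.61 ± 0.094 SE, adjusted p = 6.92e-06), were lower. In the Hedgehog list only 4 genes could be tested. The transcription factor GLI2 was at 1.04 and 0.896 FPKM in DMSO and 2.65 and 3.54 in BR10 (log2 difference 1.05 ± 0.12 SE, adjusted p = 0.000186) and its relative GLI3 at 6.03 and 5.65 FPKM in DMSO and 3.53 and 3.74 in BR10 (log2 difference -0.56 ± 0.089 SE, adjusted p = 0.00129). Leaving out BR10 replicate 1 gave 4 Notch genes lower and 1 higher, and 2 Wnt genes higher.

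Metabolic genes of glucose use were lower in BR10. Of 22 glycolysis and hypoxia-inducible genes tested, 17 were lower, 2 higher and 3 not called (median -0.63). The 2 higher became none without BR10 replicate 2 and 1 without BR10 replicate 1 or DMSO replicate 2. The lactate exporter gene SLC16A3, which encodes MCT4, was at 40.2 and 27.9 FPKM in DMSO and 4.49 and 5.8 in BR10 (log2 difference -2.5 ± 0.26 SE, adjusted p = 0.000139). The glucose transporter gene SLC2A1 was at 63.5 and 53.5 FPKM in DMSO and 24.9 and 27.4 in BR10 (log2 difference -1.13 ± 0.14 SE, adjusted p = 0.000325), and SLC2A3 was at 1.66 and 1.47 FPKM in DMSO and 0 and 0 in BR10. No SLC2A3 read was found in any library of the 3 colonies. Lactate dehydrogenase A, LDHA, was at 410.2 and 451 FPKM in DMSO and 250.4 and 241 in BR10 (log2 difference -0.8 ± 0.082 SE, adjusted p = 0.000126) and GAPDH at 1144 and 1064 FPKM in DMSO and 680.3 and 746 in BR10 (log2 difference -0.63 ± 0.089 SE, adjusted p = 0.000689). BNIP3, a hypoxia-inducible mitophagy receptor, was at 79.5 and 80.3 FPKM in DMSO and 36.1 and 36.6 in BR10 (log2 difference -1.11 ± 0.072 SE, adjusted p = 1.16e-05). SLC16A3 shares positions with another expressed gene, which makes its level uncertain.

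Serine, folate and ATF4 targets were lower in 13 of 21 genes and higher in 4 (median -0.36), while ATF4 itself, at 183 and 158 FPKM in DMSO and 147 and 157 in BR10, was not called. TRIB3, a pseudokinase, was at 20.1 and 17.6 FPKM in DMSO and 6.7 and 8.32 in BR10 (log2 difference -1.23 ± 0.11 SE, adjusted p = 6.29e-05). The large amino acid transporter SLC7A5 was at 301 and 271 FPKM in DMSO and 125 and 148 in BR10 (log2 difference -1.06 ± 0.13 SE, adjusted p = 0.00031) and its heavy chain SLC3A2 at 79.5 and 72.8 FPKM in DMSO and 40.4 and 46.2 in BR10 (log2 difference -0.8 ± 0.12 SE, adjusted p = 0.000783). Both chains of this transporter were higher in BR8 and BR16, SLC7A5 at 304 and 243 and 383 and 389 FPKM (log2 difference -1.25 ± 0.11 SE, adjusted p = 0.00014). DDIT3, which encodes the stress factor CHOP, rose, at 2.27 and 2.85 FPKM in DMSO and 7.53 and 7.08 in BR10 (log2 difference 1.23 ± 0.16 SE, adjusted p = 0.000414). Of 17 endoplasmic reticulum chaperone genes 13 were not called, and HSPA5, which encodes BiP, was at 353 and 395 FPKM in DMSO and 262 and 269.8 in BR10 (log2 difference -0.49 ± 0.084 SE, adjusted p = 0.00193). The ATF4 list had 8 genes lower and 2 higher without BR10 replicate 1, and without DMSO replicate 2 the chaperone list had 5 lower in place of 3. With the GC trend removed 7 chaperone genes were lower and none higher (median -0.13). An expressed gene overlaps DDIT3.

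NRF2 is the transcription factor of the antioxidant response, and SREBP2 that of cholesterol synthesis. Of 16 NRF2 targets 7 were higher than in DMSO, 2 lower and 7 not called (median 0.29). TXNRD1, thioredoxin reductase 1, was at 79.8 and 78.6 FPKM in DMSO and 178 and 177 in BR10 (log2 difference 1.15 ± 0.12 SE, adjusted p = 0.000128). The quinone reductase NQO1 was at 92.2 and 95.4 FPKM in DMSO and 162 and 166 in BR10 (log2 difference 0.8 ± 0.084 SE, adjusted p = 0.000148) and ME1, the cytosolic malic enzyme, at 23.4 and 27.5 FPKM in DMSO and 48.2 and 47.4 in BR10 (log2 difference 0.89 ± 0.089 SE, adjusted p = 0.000115). In BR8 TXNRD1 was at 60.1 and 61.5 FPKM and in BR16 at 33.3 and 33.5 (log2 difference 1.95 ± 0.1 SE, adjusted p = 1.18e-05, BR10 minus their mean). NQO1 was at 83.1 and 85.5 in BR8 and 53 and 51.2 in BR16 (log2 difference 1.3 ± 0.073 SE, adjusted p = 1.52e-05). The lower genes of the list were the iron-storage gene FTH1 and KEAP1, the inhibitor of NRF2. FTH1 was at 358 and 290.1 FPKM in DMSO and 46.1 and 64.8 in BR10 (log2 difference -2.54 ± 0.45 SE, adjusted p = 0.00222). FTH1 has many processed pseudogenes that can take its reads, so its level is uncertain. KEAP1 was at 23.9 and 21.8 FPKM in DMSO and 15.8 and 18.5 in BR10 (log2 difference -0.4 ± 0.1 SE, adjusted p = 0.0121), a call lost with the GC trend removed (-0.14, adjusted p = 0.143) and without BR10 replicate 1 (-0.29, adjusted p = 0.101, limma). Without BR10 replicate 1, 5 genes of the list were higher and 1 lower. Against the mean of BR8 and BR16, 11 of the 16 genes were higher in BR10 (16.9% of all genes were) and 2 lower, with a median of 0.61 beside 0.025 over all genes.

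Sterol synthesis and uptake had 12 of 19 genes higher, 1 lower and 6 not called (median 0.49). HMGCS1, which makes HMG-CoA, was at 6.18 and 6.99 FPKM in DMSO and 28.4 and 24.5 in BR10 (log2 difference 1.85 ± 0.15 SE, adjusted p = 3.79e-05). MSMO1, a sterol methyl oxidase, was at 17.1 and 19.3 FPKM in DMSO and 63.5 and 53.6 in BR10 (log2 difference 1.63 ± 0.15 SE, adjusted p = 8.73e-05). In both genes the groups did not overlap. MSMO1 was at 23.2 and 24.6 FPKM in BR8 and 17 and 17.6 in BR16 (log2 difference 1.47 ± 0.13 SE, adjusted p = 0.00015), and squalene epoxidase, SQLE, at 23.8 and 24.8 and 22.5 and 21.7, against 44.3 and 42.9 in BR10 (log2 difference 0.88 ± 0.11 SE, adjusted p = 0.000808). In all, 13 of the 19 genes were higher than that mean and 1 was lower (median 0.61), beside 16.9% and 15.3% of all tested genes.

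**Figure D4:**
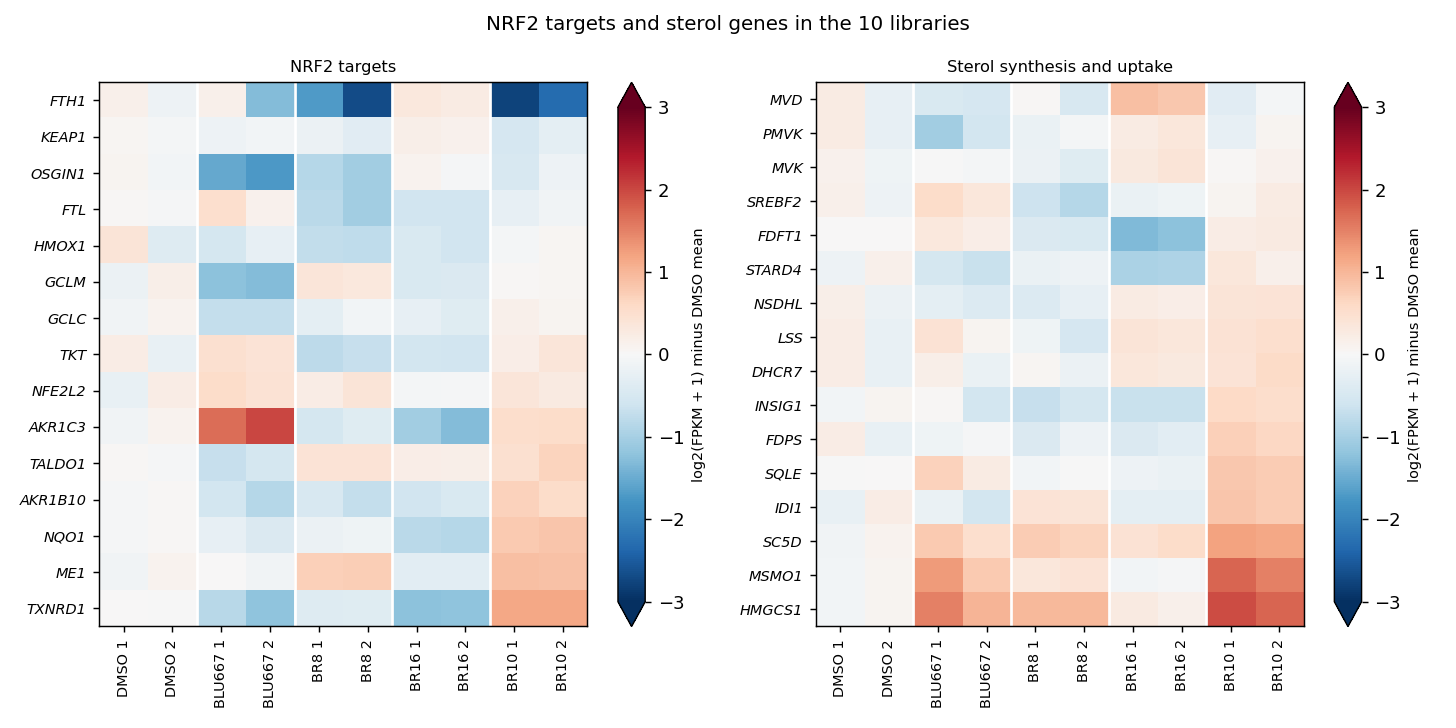
The NRF2 targets (left) and sterol genes (right) that are reported here, in the 10 libraries, coloured by log2(FPKM + 1) minus the mean of the DMSO libraries, with the colour scale ending at -3 and 3. The 2 BR10 columns are red for TXNRD1, ME1, NQO1 and, among sterol genes, HMGCS1 and MSMO1, and blue for FTH1.

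Of 8 ABC transporters tested, 5 were higher and 3 lower, and without BR10 replicate 2 the counts were 5 and 1. ABCB1, which encodes P-glycoprotein, was at 0.464 and 0.37 FPKM in DMSO and 4.55 and 4.71 in BR10 (log2 difference 1.99 ± 0.096 SE, adjusted p = 2.45e-06). ABCC3, an exporter of organic anions, was at 1.59 and 1.24 FPKM in DMSO and 7.55 and 7.78 in BR10 (log2 difference 1.85 ± 0.098 SE, adjusted p = 3.91e-06) and ABCC1 at 22.3 and 19 FPKM in DMSO and 37.1 and 39.8 in BR10 (log2 difference 0.87 ± 0.1 SE, adjusted p = 0.000279). ABCC3 was lower in BR8, at 3.57 and 3.72, and in BR16, at 2.73 and 2.74 (log2 difference 1.06 ± 0.085 SE, adjusted p = 8.94e-05). Of 22 lysosome and autophagy genes 9 were higher and 4 lower. The protease gene CTSD was the largest decrease, at 61.2 and 44.1 FPKM in DMSO and 13.8 and 18.3 in BR10 (log2 difference -1.65 ± 0.26 SE, adjusted p = 0.00129), and GLB1, lysosomal beta-galactosidase, was at 11 and 10.7 FPKM in DMSO and 20.3 and 22.4 in BR10 (log2 difference 0.91 ± 0.081 SE, adjusted p = 5.92e-05). Among 20 chromatin enzymes 5 were higher and 5 lower, and DNMT1, the maintenance DNA methyltransferase, was at 33.2 and 28.2 FPKM in DMSO and 14.8 and 17 in BR10 (log2 difference -0.9 ± 0.11 SE, adjusted p = 0.000288) while HDAC9, a class II histone deacetylase, was at 0.215 and 0.256 FPKM in DMSO and 2.43 and 2.21 in BR10 (log2 difference 1.43 ± 0.095 SE, adjusted p = 1.25e-05). The serpin SERPINA1, an elastase inhibitor, was at 8.68 and 6.75 FPKM in DMSO and 22.8 and 24.8 in BR10 (log2 difference 1.52 ± 0.15 SE, adjusted p = 0.00011). Without BR10 replicate 1, or without DMSO replicate 1, 2 lysosome genes were lower in place of 4, and without BR10 replicate 1 the chromatin list had 3 higher and 1 lower. Reads of GLB1 and DNMT1 may include those of an overlapping expressed gene.

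Transcripts of the mitochondrial genome were lower in 11 of 13 genes (median -1.28). MT-ND1, a complex I subunit, was at 2759 and 3437 FPKM in DMSO and 947 and 1137 in BR10 (log2 difference -1.57 ± 0.29 SE, adjusted p = 0.00299). MT-CYB, of complex III, was at 2270 and 2650 FPKM in DMSO and 853 and 963 in BR10 (log2 difference -1.44 ± 0.25 SE, adjusted p = 0.00222), and MT-CO2, of complex IV, at 5055 and 6279 FPKM in DMSO and 2197 and 2434 in BR10 (log2 difference -1.28 ± 0.24 SE, adjusted p = 0.00278). With no filter on low values the MT-CO2 call was lost (adjusted p = 0.148, limma). MT-CO1, another complex IV subunit, was at 6917 and 7572 FPKM in DMSO and 7070 and 7274 in BR10 and was not called, nor was MT-ND4L. Both were called higher with quantile normalization (0.37 and 0.7, adjusted p = 0.00696 and 0.00467, limma). The share of all reads from the mitochondrial genome was 4.65% and 5.33% in DMSO and 3.42% and 3.56% in BR10. BR8, at 3.64% and 3.23%, was near BR10, and BR16, at 5.52% and 5.31%, near DMSO. The medians of the same list against DMSO were -1.02 in BR8 and 0.1 in BR16. How RNA preparation bears on these shares was not tested.

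BR10 was compared with the mean of BR8 and BR16 to see what it does not share with them, and 3976 genes were called (32.2%), 2092 higher (16.9%) and 1884 lower (15.3%). At least 2-fold differences were called in 172 (1.39%) and 211 genes (1.71%). Without BR10 replicate 1 the 2 counts became 861 and 715. BR10 was called higher than each of the other 2 colonies in 803 genes (6.5%) and lower than each in 578 (4.68%). It was above all 4 other groups in 188 genes (1.52%) and below all of them in 74 (0.599%). The comparisons of the colonies with DMSO share the DMSO libraries: all 3 colonies were called higher in 1369 genes (11.1%) and lower in 1337 (10.8%). Taken singly, BR8 differed from DMSO in 54.5% and BR16 in 48.5% of the genes, and BR10 differed from BR8 in 24.1% and from BR16 in 46.7%.

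SLPI, a secreted inhibitor of leukocyte proteases, was at 32.5 and 38.1 FPKM in BR10, against 6.87 and 6.57 in BR8, 3.51 and 2.65 in BR16 and 4.07 and 4.14 in DMSO (log2 difference 2.69 ± 0.17 SE, adjusted p = 3.39e-05, BR10 minus the mean of BR8 and BR16). CLDN16 was at 20.3 and 18.5 in BR8 and 4.3 and 3.43 in BR16, below BR10 (log2 difference 2.73 ± 0.14 SE, adjusted p = 1.13e-05). In these genes BR10 was above BR8, BR16 and DMSO. LAPTM5, a lysosomal membrane protein, and MLPH, the melanosome linker melanophilin, had another order. LAPTM5 was at 61.3 and 80.0 in DMSO, 13.7 and 13.7 in BR10, 1.51 and 1.63 in BR8 and 1.52 and 0.878 in BR16 (log2 difference 2.64 ± 0.13 SE, adjusted p = 1.18e-05). MLPH was at 24.6 and 24.3 in DMSO, 15.6 and 16.7 in BR10, 1.88 and 1.95 in BR8 and 3.38 and 4.04 in BR16 (log2 difference 2.21 ± 0.087 SE, adjusted p = 5.48e-06). Here BR10 lay between the parental cells and the other colonies. LGR5, a receptor for R-spondins, was at 2.63 and 3.28 FPKM in DMSO and 2.54 and 2.73 in BR10, while BR8 had 0.314 and 0.305 and BR16 0.27 and 0.29 (log2 difference 1.49 ± 0.1 SE, adjusted p = 4.51e-05).

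On the lower side, EDN2 had 98.9 and 79.3 FPKM in BR8 and 132 and 142 in BR16, above the 14.3 and 14.2 of BR10 (log2 difference -2.86 ± 0.097 SE, adjusted p = 3e-06). COL4A1, a chain of basement membrane collagen IV, was at 35.8 and 33.5 FPKM in DMSO and 91.1 and 97.2 in BR10, and at 397 and 372 in BR8 and 421 and 418 in BR16 (log2 difference -2.08 ± 0.07 SE, adjusted p = 3e-06). BEX4, a brain-expressed X-linked family gene, was at 2.38 and 2.46 in BR10, against 14.7 and 15.8 in DMSO, 18 and 17.6 in BR8 and 13.8 and 12.6 in BR16 (log2 difference -2.26 ± 0.08 SE, adjusted p = 3.23e-06). EDN2 and COL4A1 were thus raised less in BR10 than in the other colonies, and BEX4 in BR10 lay below the other 3 groups. KRTAP2-3 and CGB8 were among the 8 largest negative differences too, but belong to families of near-identical copies and are uncertain, as is KRT81 among the positive ones.

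**Figure D5:**
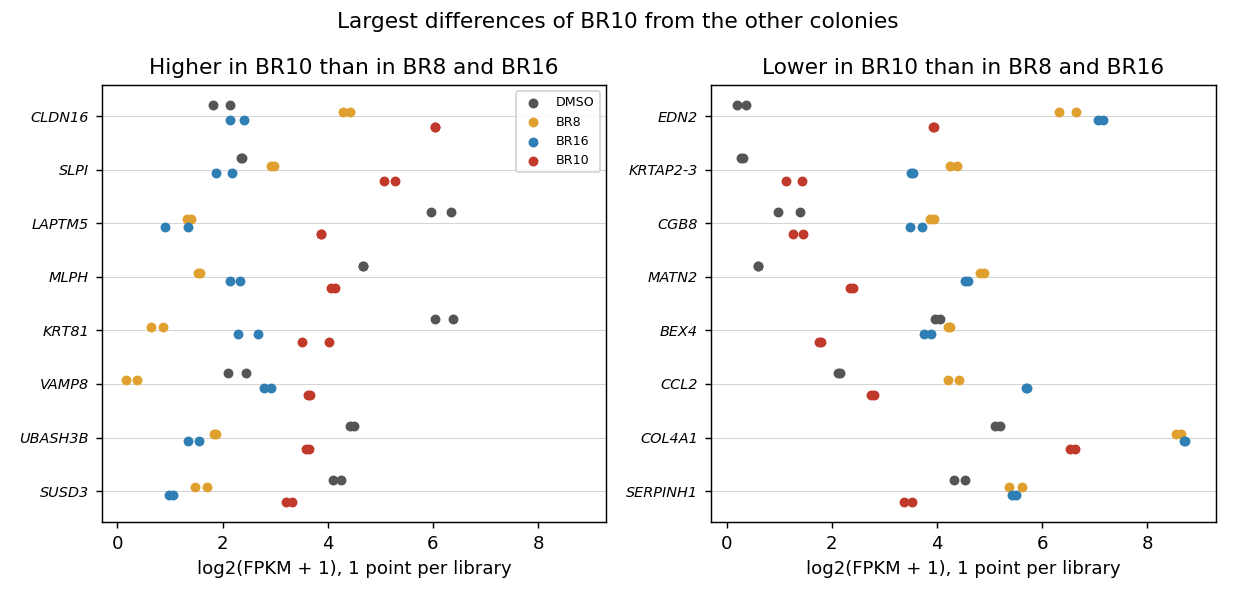
Levels of the 8 genes most above (left) and the 8 most below (right) the other colonies in BR10, as log2(FPKM + 1) with 1 point per library of DMSO (grey), BR8 (yellow), BR16 (blue) and BR10 (red). By the choice of genes, the red points lie right of all yellow and blue points on the left panel and left of them on the right panel. Their place relative to the grey points varies, from SLPI (above DMSO) to LAPTM5 (below DMSO).

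In 16 protein-coding genes BR10 was called in 1 direction against DMSO and both BR8 and BR16 in the other, and BR10 was called against each of them (a mean of at least 5 FPKM in 1 of these 4 groups and a BR10 difference of at least 0.5 were required). BR10 was the higher one in 11 of the 16. TXNRD1 and CDH2, described above, were among those 11, as were INSIG1, which restrains sterol synthesis, and AKR1C3, a ketosteroid reductase whose close paralogs make its level uncertain. Their differences from DMSO were small, 0.56 in INSIG1 and 0.54 in AKR1C3. SYNGR2 and GALNT2 were lower in BR10 and higher in the other 2 colonies, at log2 differences from DMSO of -0.62 and -0.51. The call of INSIG1 was lost without BR10 replicate 1, BR10 replicate 2 or DMSO replicate 1 (0.46 to 0.59, adjusted p = 0.0693 to 0.115), and after removal of the GC trend (0.39, adjusted p = 0.0696). For AKR1C3, leaving out BR10 replicate 1, BR10 replicate 2 or DMSO replicate 1 ended the call (0.42 to 0.55, adjusted p = 0.0578 to 0.0731).

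Set against 24 h of BLU667, BR10 differed in 6894 genes (55.8%), 3833 higher (31%) and 3061 lower (24.8%). In 967 genes (7.83%) BR10 was called lower than DMSO and higher than BLU667, and in 677 (5.48%) higher than DMSO and lower than BLU667. These counts use the BR10 libraries in both comparisons. PIK3IP1 and CITED2 were of the latter kind, at 14.4 and 19.7 and 191 and 210.1 FPKM after 24 h of drug (log2 difference -0.93 ± 0.13 SE, adjusted p = 0.000342 for PIK3IP1 and log2 difference -0.65 ± 0.088 SE, adjusted p = 0.00034 for CITED2). PDGFRB, a decrease in BR10, was at 11.8 and 15.4 after 24 h of drug, above DMSO (log2 difference -3.53 ± 0.14 SE, adjusted p = 3.89e-07). SNAI1 had the same order, at 24.4 and 20.3 (log2 difference -3.07 ± 0.13 SE, adjusted p = 5.01e-07). TNC, at 2.31 and 4.03, and ITGB3, at 5.64 and 8.04, were lower after 24 h of drug than in BR10 (log2 difference 3.01 ± 0.19 SE, adjusted p = 4.37e-06 and log2 difference 2.28 ± 0.15 SE, adjusted p = 4.89e-06). NOV and CADM1, at 0.191 and 0.366 and 0.0928 and 0.183, were near 0 after 24 h and high in BR10 (log2 difference 4.48 ± 0.091 SE, adjusted p = 4.5e-08 and log2 difference 3.53 ± 0.088 SE, adjusted p = 7.36e-08).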

How the data were processed

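Per the labels' protocols, total RNA came from a Direct-zol preparation with TRI reagent, globin transcripts were removed with GlobinClear, and NEB libraries without strand information were made, 10 in all (5 groups of 2). The submitters' processing notes name CASAVA, STAR 2.5, HTSeq 0.6.1, DESeq2 2 and GRCh38. The authors deposited FPKM values per gene, in 1 table for the whole series; 58724 of its 58735 genes have the start and end of GENCODE 29. FPKM times gene length, scaled per library, was a whole number of reads in 100.0% of values (tolerance 0.05), and these reads were used for depth, floors of 3 reads and 1 alternative.

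Differences were tested with limma 3.58.1 (R 4.3.3) on log2(FPKM + 1) in 1 fit of all 5 groups (5 residual degrees of freedom, variance trend) over the 12346 genes, with Benjamini-Hochberg adjustment. All 10 libraries thus share 1 estimate of the spread. The DMSO pair differed most, so the SE of differences from DMSO may be too small. On simulated data for BR10 against DMSO (11882 genes), the fit recovered 75 of 95 genes changed 2-fold and 87 of 95 changed 4-fold, none with the wrong sign, and made 11 false calls. In the simulation few genes changed, each gene had the same spread in all groups and no GC trend was built in. The false calls there therefore do not give the error rate of these data. The members and lists were chosen with earlier results of these data known. The text names RET, CCDC6, TERT and CDKN2A, the 14 largest called changes in each direction, up to 4 per list, the 8 most different from the other colonies in each direction, and genes at 0 in 1 group. The 14 and the 8 were protein-coding, with no overlap between the libraries compared and a mean of at least 5 FPKM where they were higher. Other named genes were chosen after their values were seen. Some genes that this rule or the lists take in are not reported here. Python 3.11.15, pandas 2.3.3 and matplotlib 3.10.9 served for tables and figures. Alternatives were other pseudocounts, filters, scalings, GC trend removal, voom, a fit of only the groups compared, a replicate block and leaving out each library. Promoters were those of RefSeq, GRCh38.p14. Depth was 15243703 to 21904245 reads per library, and intervals beyond the replicate spread were not computed.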

Additional observations from a re-analysis of the deposited data

Results flagged for a closer look

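Of the 16 protein-coding genes that were called in opposite directions against DMSO in BR10 and in both other colonies, the 6 with the largest difference between BR10 and the mean of BR8 and BR16 are given here. That BR10 was called against each of the other colonies (limma) was part of how the genes were chosen, so the differences are a description. SEZ6L2, a seizure-related membrane protein, was at 1.86 and 1.05 FPKM in DMSO and 0.361 and 0.182 in BR10, 4.3 and 3.47 in BR8 and 4.88 and 5.59 in BR16 (log2 difference -2.12 ± 0.15 SE, BR10 minus the mean of BR8 and BR16). SERPINH1, the collagen chaperone HSP47, was at 22.2 and 19.1 FPKM in DMSO and 9.31 and 10.5 in BR10, 47.9 and 40.3 in BR8 and 42.1 and 44.4 in BR16 (log2 difference -2.03 ± 0.11 SE, BR10 minus the mean of BR8 and BR16). PIEZO1, a mechanosensitive channel that overlaps another expressed gene, was at 19.7 and 15.1 FPKM in DMSO and 8.39 and 10.1 in BR10, 24.3 and 21.4 in BR8 and 33 and 31.8 in BR16 (log2 difference -1.47 ± 0.12 SE, BR10 minus the mean of BR8 and BR16). These 3 genes were lower in BR10 than in DMSO and higher in both other colonies.

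The other 3 had the reverse order. TXNRD1, described above, differed from the other colonies by 1.95. PRDX2, a peroxiredoxin that uses thioredoxin to reduce peroxides, was at 39.5 and 31.4 FPKM in DMSO and 49.1 and 58.8 in BR10, 13.7 and 14.6 in BR8 and 25.7 and 26.2 in BR16 (log2 difference 1.44 ± 0.12 SE, BR10 minus the mean of BR8 and BR16). Without BR10 replicate 2 its difference from DMSO was 0.47 and not called (adjusted p = 0.064, limma). UCP2, a mitochondrial carrier, was at 14.2 and 15.3 FPKM in DMSO and 21.9 and 28.5 in BR10, 10.6 and 8.64 in BR8 and 8.6 and 8.04 in BR16 (log2 difference 1.39 ± 0.12 SE, BR10 minus the mean of BR8 and BR16).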

How the results depend on the processing

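Against DMSO, 2589 genes were higher in BR10 and 3032 lower. With a filter of 5 FPKM, which tested 7311 genes, 1627 were higher, and with an absolute difference of at least 1 the counts were 553 and 654. Leaving out 1 library at a time gave 1786 to 2800 higher and 1835 to 3083 lower. Against the mean of BR8 and BR16 an absolute difference of at least 1 left 172 higher and 211 lower, and leaving out 1 library gave 861 to 1733 and 715 to 1665, so the BR10 libraries weigh most there. Against BLU667 it left 1051 higher and 674 lower, the 5 FPKM filter gave 1734 lower, and leaving out 1 library gave 3007 to 3250 higher and 2290 to 2440 lower. Other pseudocounts, no filter, other scalings, no variance trend, GC trend removal and voom on recovered reads (2715 higher and 3216 lower than DMSO) left each of the 6 counts within 1.5 times. The genes behind the counts changed more. With the GC trend removed, 2128 of the 2589 higher and 2589 of the 3032 lower calls against DMSO were kept, and with no filter 2110 and 2318. When the fit held no other groups than those compared, 1795 were higher and 2090 lower than DMSO, 2719 and 2379 against the other colonies, and 3840 and 3058 against BLU667. The edgeR alternative was not run because the deposited values are FPKM.

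With the replicate number as a block, 2401 genes were higher and 2816 lower than in DMSO, 1830 and 1714 against the other colonies, and 3693 and 2939 against BLU667. The numbers do not pair the samples: the differences between replicates correlated at -0.222 between DMSO and BR10 across genes. With the numbers of BR10 crossed, chosen after seeing the data, the counts against DMSO were 2576 and 3092.

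Of 243 tested genes chosen for naming, 227 were called against DMSO; 91 of these were below an absolute difference of 1, and 33 lost the call under at least 1 of the other alternatives; 11 uncalled ones gained it. SMO, a Hedgehog receptor partner, changed sign, to 0.05 with the GC trend removed (adjusted p = 0.554, limma); the cause was not tested. With 2 libraries a group and a median SE of 0.119, small differences of low genes were not detectable.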

Other observations

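Some differences followed position on the chromosomes. Of 53 tested genes between 20 and 30 Mb of chromosome 8, 42 were called lower in BR10 than in DMSO and 1 higher, with a median difference of -0.917 beside -0.027 over all genes. The medians of the same genes were -0.97 in BR8 and -0.801 in BR16 against DMSO, with the DMSO libraries shared. Of 76 tested genes between 140 and 150 Mb of that chromosome, 57 were lower in BR10 and 3 higher (median -0.818). There the median was -0.863 in BR8 and -0.105 in BR16. Between 20 and 30 Mb of chromosome 6, 32 of 62 tested genes were higher in BR10 and 3 lower, with a median of 0.439. The medians there were 0.29 in BR8 and 0.247 in BR16. Neighbouring genes also share GC content, and copy number was not measured, so the part of either was not tested.

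Long intergenic noncoding RNA genes were called higher in 93 and lower in 44 of 327 tested, and antisense RNA genes higher in 77 and lower in 56 of 384. Over all genes 21% were higher and 24.6% lower. Antisense genes overlap other genes by definition. Where the exons of both overlap, their reads cannot be separated in these non-directional libraries.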
